A study of Homo sapiens with 6 samples.

Results

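The 40 genes described here encode enzymes that the deposited annotation places on the KEGG global map of metabolic pathways (the Pathway term ko01100). That term was carried by 44 of the 753 genes listed, GNPDA1 and ALOX5 among them, and AKR1C3, B3GNT6, DHRS9 and NDUFA4L2 were left out by symbol. Most of the 40 are enzymes of specialised reactions, from the handling of amino sugars to the conjugation of bile acids.

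RNA was sequenced from AsPC-1 cells, an established human pancreatic cancer cell line. The control group holds 3 samples (genotype label TMPRSS4 NC) given a control lentivirus, and the shTMPRSS4 group holds 3 samples (genotype label TMPRSS4-Knockdown) given a lentivirus carrying an shRNA, an RNA hairpin that lowers its target, TMPRSS4, which is a serine protease of the cell surface. All 6 samples had therefore received a lentivirus, and the labels do not say how many hairpin sequences were used, whether the cells were 1 clone, or whether replicates were separate cultures. The comparison asks which RNAs change once TMPRSS4 is targeted. TMPRSS4 itself was not analysed here, so the names of the groups follow the labels alone.

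Metabolic enzymes turn nutrients into energy, building blocks and signals. Pancreatic cancer cells are known for reworking sugar, amino acid and lipid use, and for the dense coat of mucin-type glycans they carry and shed. Amino sugars made from glucose feed glycan synthesis, sialic acid caps many of the finished chains, and sphingolipids and eicosanoids act both as membrane constituents or products and as signals.

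Every gene in the table had been selected by the authors for a difference between these same 6 libraries. In the authors' deposited table every row changed by 1 or more on the log2 scale, in either direction, and had a false discovery rate of at most 0.049. That the members differ is therefore a property of the selection, and the tests below describe them without adding independent evidence. Among the members, AK9 lay nearest to the fold threshold, with a log2 fold change of 1.01 in the authors' deposited table, and ACSBG1 nearest to the other, with a false discovery rate of 0.0466 in the authors' deposited table. Other genes were not analysed here.

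Library depth recovered from the table ranged from 30200000 to 57200000 reads, and the 40 members held 24798 to 45700 counts per library. Over all 753 rows, shTMPRSS4 replicate 1 stood farther from its 2 fellow replicates (chi-square per gene of 46.7 and 43.6) than those did from each other (11.4). Over the members with at least 10 counts in the pair the same values were 4.54, 4.21 and 2.74. Control replicate 3 is the single library with the code L3 in its description. None of 8 listed markers of pancreatic duct epithelium was among the genes analysed, so the labelled cell type could not be checked on these rows. Of the markers of other cell types, 2 of 10 acinar and islet genes (CELA3A and GCG) had summed levels of 0.26 to 0.34 FPKM in control and 3.31 to 4.55 FPKM in shTMPRSS4 libraries, with GCG at 0 in control. The fibroblast and endothelial genes (2 of 10, FAP and PECAM1) summed to 0.78 to 1.22 and 1.7 to 2.19 FPKM, although 1 of them was higher and 1 lower in shTMPRSS4 libraries. The hepatocyte and enterocyte list (1 of 8, TTR) stood at 2.14 to 4.36 and 9.7 to 10.7 FPKM, and none of 8 immune markers was among the genes analysed. Their part in the results below was not tested.

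Of the 40 members 28 were higher and 12 lower in the shTMPRSS4 libraries, that is 70.0% higher, against 73.7% of all 753 rows. After a filter on low counts, 37 members were tested with the quasi-likelihood test of edgeR. All 37 passed (p adjusted by Benjamini-Hochberg over all rows tested, threshold 0.05), 26 higher and 11 lower, where 99.1% of the 705 rows tested passed, 73.3% of the tested rows as higher and 25.8% as lower. The members' share is near that background, so it says nothing particular about metabolic enzymes. The 3 members not tested, with too few counts, were ACSM1, DGKB and CYP3A7-CYP3A51P. Members with few control counts, PLA2G4C, GGT5, AGXT and UGT2B15 among them, passed the filter only through the shTMPRSS4 libraries. Their calls are therefore no support for a difference. Depth-scaled counts of the groups did not overlap in 39 of 40 members, against 98% of all rows, and the exception was CYP3A7-CYP3A51P. The median log2 fold change, on depth-scaled counts plus 0.5, was 1.41 for the 28 higher members and 1.65 for all higher rows, and -1.50 for the 12 lower members and -1.38 for all lower rows.

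Levels are given in FPKM, which divides the fragments of a gene by its length and by the depth of the library and so allows genes to be compared. Fold values below are ratios of the mean FPKM of the groups. In the group where it was higher, 16 members had a mean under 1 FPKM, 14 had 1 to 10 FPKM and 10 had at least 10 FPKM. Of these 10 abundant members 6 were higher (HSD17B10, HGD, ALDH3A1, ALOX5, GNE and SPHK2) and 4 lower (ST3GAL1, GNPDA1, ACSS2 and MAT1A). Summed over the 28 higher members, the level was 122, 130.5 and 126 FPKM in control replicates 1, 2 and 3 and 321, 324 and 327 FPKM in shTMPRSS4 replicates 1, 2 and 3. Summed over the 12 lower members it was 305, 300.2 and 314.5 FPKM in control and 123, 120.1 and 123 FPKM in shTMPRSS4 libraries. The 2 sums thus nearly exchanged places, and the sum of all 40 stayed between 427 and 450.1 FPKM. HSD17B10 alone made up 54.1% of the summed rise of 198 FPKM, and ST3GAL1 with GNPDA1 made up 77.7% of the summed fall.

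**Figure D1:**
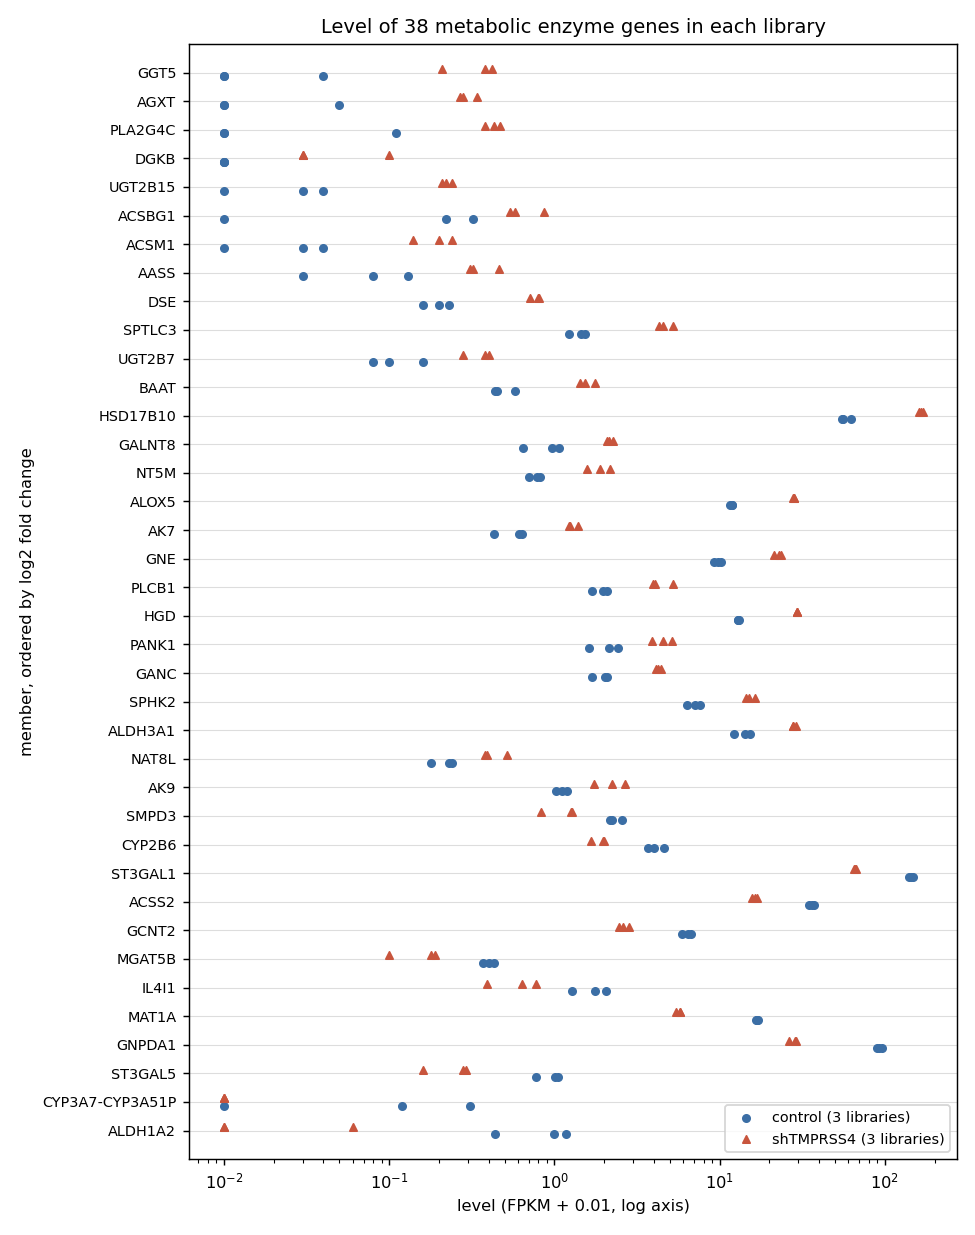
Level of 38 members in each of the 6 libraries, as FPKM plus 0.01 on a log axis. Circles are 3 control and triangles 3 shTMPRSS4 libraries, members are ordered by log2 fold change, and the groups overlap in CYP3A7-CYP3A51P alone.

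**Figure D2:**
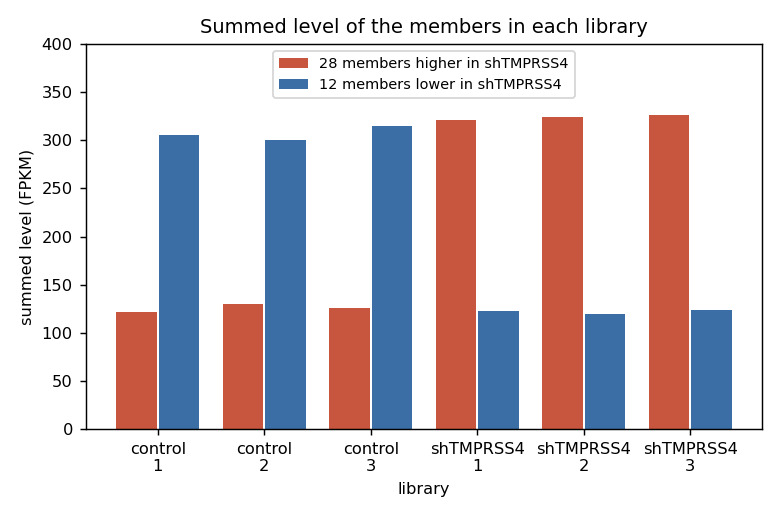
Summed level (FPKM) of the 28 higher and the 12 lower members in each library. The bars were split by the direction of the difference, so their opposite course follows from that split, and the heights show how close the 3 replicates of a group lie.

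Some directions depend on how libraries are scaled, and scaling over genes selected for a difference pulls their average towards 0. Recovered library depth was used throughout. With the TMM method computed over the listed genes, the median log2 fold change of all rows shifted by -1.18, and with DESeq2 size factors by -1.16. The rows that passed as higher and as lower went from 517 and 182 to 167 and 192 with TMM and to 177 and 191 with DESeq2 size factors. AK9, ALDH3A1, GANC, NAT8L, PANK1 and SPHK2 were among those that then turned to lower under both, and HGD turned under TMM. With TMM 7 of the 26 higher members still passed edgeR, AGXT, DSE, GGT5, HSD17B10, SPTLC3 and UGT2B15 among them, so every other rise below is a call at recovered depth. No lower member turned under the 3 scalings tried (TMM, DESeq2 size factors and upper quartile), and all 11 that passed still did. All 3 moved the median of all rows downward (upper quartile by -0.715), which makes falls larger. They are therefore no check of the lower members.

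Promoter sequences are shown for the 6 most abundant members that matched an entry of the RefSeq promoter table (GRCh38.p14), 3 of them higher (HSD17B10, GNE and SPHK2) and 3 lower (GNPDA1, ACSS2 and MAT1A). Each is the 250 bases before the start that RefSeq gives the gene, 5′ to 3′ on its strand. The gene bounds printed below are those of GENCODE and can differ: the window of ACSS2 lies wholly within its GENCODE bounds, and those of SPHK2, GNE, MAT1A and GNPDA1 overlap theirs in part. Capitals mark matches on either strand to ACGTG, the core of the hypoxia response element, CACGTG, an E-box that contains the first motif, TGACNNNGC, the core of the antioxidant response element, CCAAT or TATAAA.
HSD17B10, chrX:53434377-53434626, minus strand: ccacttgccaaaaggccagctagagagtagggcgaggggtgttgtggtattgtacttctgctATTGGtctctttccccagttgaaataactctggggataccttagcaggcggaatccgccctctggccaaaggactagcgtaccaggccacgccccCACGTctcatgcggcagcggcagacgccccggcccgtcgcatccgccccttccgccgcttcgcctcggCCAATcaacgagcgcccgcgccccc
GNE, chr9:36276979-36277228, minus strand: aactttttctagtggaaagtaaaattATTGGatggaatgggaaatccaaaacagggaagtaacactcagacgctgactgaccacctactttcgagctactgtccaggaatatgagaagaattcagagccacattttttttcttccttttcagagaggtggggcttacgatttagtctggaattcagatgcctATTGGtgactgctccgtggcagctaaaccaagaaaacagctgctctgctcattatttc
SPHK2, chr19:48619256-48619505, plus strand: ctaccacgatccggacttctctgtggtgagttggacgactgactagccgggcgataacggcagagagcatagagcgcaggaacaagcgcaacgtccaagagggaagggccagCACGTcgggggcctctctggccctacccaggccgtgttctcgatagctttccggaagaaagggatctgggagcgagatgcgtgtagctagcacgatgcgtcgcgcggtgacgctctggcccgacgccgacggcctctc
GNPDA1, chr5:142013028-142013277, minus strand: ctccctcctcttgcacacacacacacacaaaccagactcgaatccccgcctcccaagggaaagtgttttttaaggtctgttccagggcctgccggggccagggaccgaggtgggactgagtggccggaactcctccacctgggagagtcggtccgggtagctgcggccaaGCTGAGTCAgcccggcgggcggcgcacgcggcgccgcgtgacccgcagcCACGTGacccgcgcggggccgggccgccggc
ACSS2, chr20:34874739-34874988, plus strand: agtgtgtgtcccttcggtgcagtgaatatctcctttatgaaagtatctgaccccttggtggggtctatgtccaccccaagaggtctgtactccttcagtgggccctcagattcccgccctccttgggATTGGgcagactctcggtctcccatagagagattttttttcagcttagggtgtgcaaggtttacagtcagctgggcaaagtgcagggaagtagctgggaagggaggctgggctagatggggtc
MAT1A, chr10:80289659-80289908, minus strand: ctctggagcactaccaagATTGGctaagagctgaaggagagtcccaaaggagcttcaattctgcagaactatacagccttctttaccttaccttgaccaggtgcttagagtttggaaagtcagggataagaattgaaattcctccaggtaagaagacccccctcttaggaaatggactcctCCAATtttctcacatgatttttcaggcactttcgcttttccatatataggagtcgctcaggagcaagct

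Of the 40 members 28 matched the promoter table. CCAAT, the box bound by NF-Y, was found in 15 of these 28 windows (53.6%), against 31.1% of 534 matched rows of the table and 33% of 27305 windows in all. It was in 9 of 18 higher and 6 of 10 lower members, so it was not limited to a direction. ACGTG was found in 7 of 28 (25%), against 16.9% of matched rows and 18.7% of all windows, in 4 higher members (AK9, DGKB, HSD17B10 and SPHK2) and 3 lower ones (ALDH1A2, GCNT2 and GNPDA1). CACGTG was in 7.14% of members and 6.49% of all windows, TGACNNNGC in 14.3% and 11%, and TATAAA in 10.7% and 11.1%. The window of GNPDA1 held both CACGTG and TGACNNNGC. These matches are descriptions of the letters and were not tested.

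Sugar and glycan enzymes went both ways, with the 2 most abundant members of the whole set in control cells among those that fell. Of 9 members 4 rose at recovered depth (GNE, GALNT8, GANC and DSE) and 5 fell (GNPDA1, ST3GAL1, ST3GAL5, GCNT2 and MGAT5B). Under TMM and DESeq2 scaling GANC turned, GNE and GALNT8 did not pass, and DSE still passed. Of a list of 109 glycan and glycolipid synthesis genes 7 were in the table, 6 of which passed as lower and 1 as higher. The lower ones were GCNT2, MGAT5B, ST3GAL1, ST3GAL5 and the sulfotransferases CHST11 and HS3ST1, and the higher one was GALNT8. This list names neither DSE, which rose, nor B3GNT6, which is in the table and was left out by symbol. The split therefore depends on the genes chosen for the list. In the table as a whole 73.7% of rows were higher.

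GNPDA1 and GNE act at neighbouring points of amino sugar metabolism and moved in opposite directions at recovered depth. GNPDA1 (ENSG00000113552, chromosome 5, 141991749 to 142013041) encodes glucosamine-6-phosphate deaminase, which returns amino sugar to fructose-6-phosphate. Its level was 92.4, 89 and 96.1 FPKM in control replicates 1, 2 and 3 and 29.1, 26.2 and 28.5 FPKM in shTMPRSS4 replicates 1, 2 and 3. All control libraries lay far above all shTMPRSS4 libraries, and GNPDA1 fell 3.31-fold, a log2 fold change of -1.73 ± 0.06 (SE, n = 3 per group) with an edgeR adjusted p of 1.81e-09. GNE (ENSG00000159921, chromosome 9, 36214441 to 36277056) encodes the bifunctional epimerase and kinase that sets the rate of sialic acid synthesis from UDP-N-acetylglucosamine. GNE had 9.24, 9.73 and 10.1 FPKM in control and 23.6, 22.7 and 21.2 FPKM in shTMPRSS4 replicates 1, 2 and 3. At recovered depth GNE rose 2.32-fold, with every shTMPRSS4 library far above every control library, and its edgeR adjusted p was 6.17e-08. Its log2 fold change was 0.023 with TMM (edgeR adjusted p = 0.83) and 0.0423 with DESeq2 size factors (edgeR adjusted p = 0.723).

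Both sialyltransferases in the set fell while GNE rose at recovered depth. ST3GAL1 (ENSG00000008513, chromosome 8, 133454848 to 133571940), which caps galactose of mucin-type O-glycans with sialic acid, was the most abundant member in control cells, with 145, 139.9 and 148 FPKM in replicates 1, 2 and 3. It had 64.9, 66.5 and 65.8 FPKM in shTMPRSS4 replicates 1, 2 and 3, close together and far below every control library. Its log2 fold change was -1.14 ± 0.03 (edgeR adjusted p = 1.40e-09). ST3GAL5 (ENSG00000115525, chromosome 2, 85837120 to 85905199), the synthase of the ganglioside GM3, was at far lower levels, with 1.0, 1.04 and 0.76 FPKM in control and 0.28, 0.15 and 0.27 FPKM in shTMPRSS4 libraries. It fell 4.0-fold (log2 fold change -2.03 ± 0.33), from 259 counts over 3 control libraries to 76 over 3 shTMPRSS4 libraries.

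The remaining glycan enzymes stood at lower levels. GCNT2, which builds branched I antigen chains, fell from 6.33 ± 0.374 to 2.61 ± 0.176 FPKM (mean ± SD, n = 3) and its log2 fold change was -1.27 ± 0.07. MGAT5B, a branching N-acetylglucosaminyltransferase best known from brain, fell from 0.39 ± 0.03 to 0.147 ± 0.0493 FPKM. GALNT8, of the family that starts mucin-type O-glycans, rose from 0.887 ± 0.219 to 2.15 ± 0.0819 FPKM at recovered depth. However, 62.2% of its 31-base words also occur in other genes, and 43.7% in the overlapping gene KCNA6. Its level therefore depends on how shared reads were assigned. DSE, which epimerises glucuronic acid in dermatan sulfate chains, had 0.19, 0.15 and 0.22 FPKM in control and 0.79, 0.80 and 0.70 FPKM in shTMPRSS4 libraries and rose 4.09-fold. GANC, a neutral alpha-glucosidase, rose from 1.92 ± 0.212 to 4.24 ± 0.15 FPKM at recovered depth and turned under TMM and DESeq2 scaling.

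**Figure D3:**
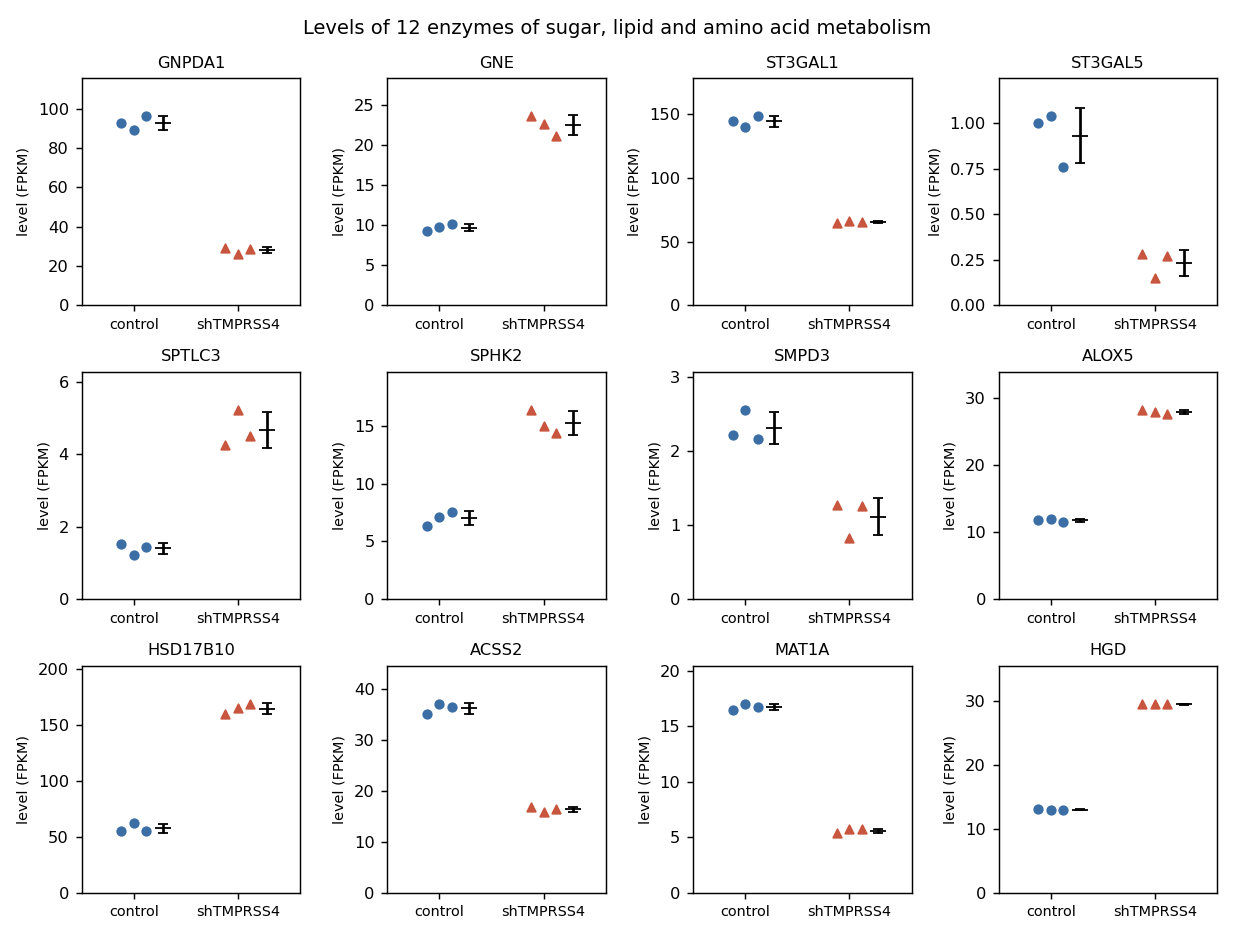
Levels (FPKM, axes from 0) of 12 members in 3 control (circles) and 3 shTMPRSS4 libraries (triangles), with the mean and SD beside them. In each panel the 2 groups are apart, as for GNPDA1 with 89.0 to 96.1 FPKM in control and 26.2 to 29.1 FPKM in shTMPRSS4 libraries.

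Sphingolipid enzymes of synthesis and phosphorylation rose at recovered depth, and a sphingomyelinase fell. SPTLC3 (ENSG00000172296, chromosome 20, 13008979 to 13169103), a subunit of serine palmitoyltransferase, the first enzyme of sphingolipid synthesis, had 1.53, 1.22 and 1.44 FPKM in control replicates 1, 2 and 3. It had 4.26, 5.22 and 4.51 FPKM in shTMPRSS4 replicates 1, 2 and 3 and so rose 3.34-fold (log2 fold change 1.74 ± 0.13, edgeR adjusted p = 2.15e-06). SPHK2 (ENSG00000063176, chromosome 19, 48619291 to 48630717), which phosphorylates sphingosine, had 6.36, 7.1 and 7.57 FPKM in control and 16.4, 15 and 14.4 FPKM in shTMPRSS4 libraries. The lowest shTMPRSS4 library lay well above the highest control library, and SPHK2 rose 2.18-fold, although it turned under TMM and DESeq2 scaling. Of its 31-base words 21.7% occur in other genes, and 9.73% in DBP on the opposite strand. SMPD3 (ENSG00000103056, chromosome 16, 68358325 to 68448688), the neutral sphingomyelinase that releases ceramide, had 2.21, 2.55 and 2.16 FPKM in control and 1.27, 0.82 and 1.25 FPKM in shTMPRSS4 libraries. SMPD3 fell 2.07-fold, with shTMPRSS4 replicate 2 the lowest library, and an edgeR adjusted p of 5.28e-04.

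Enzymes of phospholipid signalling were scarcer. PLCB1, the phospholipase C that splits a membrane inositol lipid into diacylglycerol and inositol trisphosphate, went up from 1.9 ± 0.201 to 4.39 ± 0.684 FPKM (log2 fold change 1.20 ± 0.15). With TMM its log2 fold change was 0.0084 (edgeR adjusted p = 0.957), and with DESeq2 size factors 0.0277 (edgeR adjusted p = 0.885). DGKB, a kinase that removes diacylglycerol, had no count in the control libraries and 4, 20 and 5 counts in shTMPRSS4 replicates 1, 2 and 3. Against a floor of 3 counts over the control group it was at least 8.0-fold higher. Most of its counts came from replicate 2, without which its log2 fold change went from 3.88 to 3.18. DGKB was not tested. Of 121 glycerolipid, phospholipid and sphingolipid genes on the list 4 were in the table, 2 passing as higher (SPTLC3 and SPHK2, the latter turning as stated), 1 as lower (SMPD3) and 1 not tested (DGKB).

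All 3 members grouped as eicosanoid enzymes rose at recovered depth, but the rise of ALOX5 depended on the scaling. Its log2 fold change was 0.06 with TMM (edgeR adjusted p = 0.468) and 0.0793 with DESeq2 size factors (edgeR adjusted p = 0.378), and PLA2G4C did not pass with TMM (edgeR adjusted p = 0.0575). Of 57 arachidonic acid and eicosanoid genes on the list these 3 were the ones in the table. The list does not name AKR1C3, which is in the table and was left out by symbol. The deposited annotation gives the arachidonic acid term to 6 rows of the table, of which 4 are members, 3 higher and 1 lower. The lower one is CYP2B6, which the list does not name. ALOX5 (ENSG00000012779, chromosome 10, 45374176 to 45446119), 5-lipoxygenase, which starts leukotriene synthesis, had 11.8, 11.9 and 11.5 FPKM in control and 28.2, 28 and 27.6 FPKM in shTMPRSS4 replicates 1, 2 and 3. The replicates of each group lay within 1 FPKM of each other and ALOX5 rose 2.38-fold, a log2 fold change of 1.25 ± 0.02 with an edgeR adjusted p of 1.51e-08. PLA2G4C, a cytosolic phospholipase A2 of the class that releases arachidonic acid, had 7, 0 and 0 counts in the control libraries and 23, 27 and 23 in the shTMPRSS4 libraries. GGT5, a glutamyltransferase that acts on leukotriene C4, had 3, 0 and 0 and 19, 33 and 34 counts, a ratio of 23.7 (95% counting interval 7.85 to 117). PLA2G4C and GGT5 passed with edgeR adjusted p-values of 0.0019 and 2.48e-04, but their means stayed at 0.417 ± 0.0451 and 0.327 ± 0.112 FPKM in shTMPRSS4 cells. They entered the test only through the shTMPRSS4 libraries, where they were high, so these calls add no support. Control replicate 1 held all of their control counts, and without it the log2 fold changes went from 4.30 to 5.43 for PLA2G4C and from 4.85 to 5.62 for GGT5.

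Among enzymes of acyl-CoA, fatty acid and bile acid metabolism 4 rose, 1 fell and 1 was not tested. HSD17B10 (ENSG00000072506, chromosome X, 53431258 to 53434373), a mitochondrial dehydrogenase of isoleucine breakdown that is also a subunit of mitochondrial RNase P, was the most abundant member in shTMPRSS4 cells. Its level was 55.1, 62.6 and 55.6 FPKM in control replicates 1, 2 and 3 and 159.9, 165 and 169 FPKM in shTMPRSS4 replicates 1, 2 and 3. HSD17B10 rose 2.85-fold, with the groups far apart, and its log2 fold change was 1.51 ± 0.06 (edgeR adjusted p = 4.11e-09). ACSS2 (ENSG00000131069, chromosome 20, 34872146 to 34927962), which makes acetyl-CoA from acetate in the cytosol and nucleus, had 35, 37 and 36.4 FPKM in control and 16.9, 15.8 and 16.4 FPKM in shTMPRSS4 libraries. ACSS2 fell 2.21-fold in libraries that differed little within a group (edgeR adjusted p = 7.74e-08).

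PANK1, pantothenate kinase, the entry to coenzyme A synthesis, had 2.41, 2.12 and 1.62 FPKM in control and 3.87, 4.54 and 5.13 FPKM in shTMPRSS4 libraries and rose 2.2-fold, although it turned under TMM and DESeq2 scaling. BAAT, which joins bile acids to glycine or taurine and is typical of liver, rose from 0.48 ± 0.0781 to 1.56 ± 0.173 FPKM (log2 fold change 1.70 ± 0.16). BAAT did not pass under TMM or DESeq2 scaling (edgeR adjusted p = 0.0581 and 0.0528). ACSBG1, which activates long-chain fatty acids, had 38, 17 and 0 counts in control replicates 1, 2 and 3 and 62, 63 and 86 in shTMPRSS4 replicates 1, 2 and 3. It passed with an edgeR adjusted p of 0.0338, and the 0 in control replicate 3 set the size of its log2 fold change of 3.21 ± 1.91. Without that library the log2 fold change was 1.32, without control replicate 1 it was 4.25, and without control replicate 2 it was 4.05 and did not pass (edgeR adjusted p = 0.0718). Without shTMPRSS4 replicate 1, 2 or 3 it did not pass either (edgeR adjusted p = 0.0568, 0.0696 and 0.0939), nor with the replicate number as a block (edgeR adjusted p = 0.161). ACSBG1 shares 30.9% of its 31-base words with IDH3A on the opposite strand, and the protocol describes nothing that would keep strands apart, so reads of the pair may be mixed. ACSM1, for medium-chain fatty acids, had 2, 0 and 1 and 14, 16 and 8 counts, a ratio of 10.5 (95% counting interval 3.33 to 53.1), and was not tested. Its log2 fold change of 3.18 went to 2.51 without control replicate 2.

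The 6 enzymes of amino acid metabolism described here went both ways, 4 higher and 2 lower, all of which passed. MAT1A (ENSG00000151224, chromosome 10, 80271820 to 80289684), the liver-type enzyme that makes S-adenosylmethionine from methionine, had 16.5, 17 and 16.8 FPKM in control and 5.41, 5.71 and 5.71 FPKM in shTMPRSS4 replicates 1, 2 and 3. Replicates differed by less than 1 FPKM and MAT1A fell 2.99-fold (log2 fold change -1.58 ± 0.03, edgeR adjusted p = 1.67e-08). IL4I1, a secreted oxidase of aromatic amino acids, had 1.27, 2.04 and 1.76 FPKM in control and 0.63, 0.38 and 0.76 FPKM in shTMPRSS4 libraries and fell 2.86-fold. 11.5% of the 31-base words of IL4I1 also occur in the overlapping gene NUP62. HGD (ENSG00000113924, chromosome 3, 120628173 to 120682571), a dioxygenase of tyrosine and phenylalanine breakdown, had 13.1, 12.9 and 13 FPKM in control and 29.5, 29.5 and 29.6 FPKM in shTMPRSS4 libraries. Its replicates were the closest of any member, and the log2 SE of 0.0057 was below the 0.043 that counting error alone gives. HGD rose 2.27-fold with an edgeR adjusted p of 1.44e-07, and it turned under TMM scaling, to a log2 fold change of -0.0064.

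AASS, the first enzyme of lysine breakdown, had 12, 14 and 2 counts in control and 51, 72 and 47 in shTMPRSS4 libraries. Its log2 fold change of 2.58 went to 1.94 without control replicate 3. AASS did not pass under TMM or DESeq2 scaling (edgeR adjusted p = 0.0625 and 0.0521). AGXT, the peroxisomal aminotransferase that detoxifies glyoxylate in liver, had 0, 3 and 0 and 26, 25 and 29 counts, a ratio of 22.1 (95% counting interval 7.29 to 109). All control counts of AGXT came from replicate 2, and without it the log2 fold change went from 4.61 to 5.69. NAT8L, which makes N-acetylaspartate, rose from 0.207 ± 0.0321 to 0.42 ± 0.0781 FPKM and turned under TMM and DESeq2 scaling. The 6 genes found from a list of 158 amino acid, polyamine and one-carbon genes were all members, 4 passing as higher and 2 as lower. The liver protein TTR, given above, moved in the same direction as BAAT and AGXT, while the liver-type MAT1A moved in the opposite one.

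Enzymes of retinoids and xenobiotics included the largest fall of any member tested. ALDH1A2 (ENSG00000128918, chromosome 15, 57953424 to 58497866), which makes retinoic acid from retinal, had 1.17, 0.98 and 0.43 FPKM in control replicates 1, 2 and 3 and 0, 0.05 and 0 FPKM in shTMPRSS4 replicates 1, 2 and 3. In counts these were 134, 73 and 26 and 0, 5 and 0, so it was nearly lost from the shTMPRSS4 libraries, and its 5 counts there all came from replicate 2. The ratio of summed counts was 56.3 (95% counting interval 23.8 to 175) in favour of control, and the edgeR adjusted p was 1.03e-04. The log2 fold change of -6.08 ± 1.20 went to -7.16 without shTMPRSS4 replicate 2. ALDH3A1 (ENSG00000108602, chromosome 17, 19737984 to 19748943), which oxidises reactive aldehydes, had 12.3, 14.1 and 15.2 FPKM in control and 27.9, 27.8 and 29.1 FPKM in shTMPRSS4 libraries. At recovered depth it rose 2.04-fold (log2 fold change 1.03 ± 0.09), and it turned under TMM and DESeq2 scaling.

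CYP2B6, a cytochrome P450 of drug metabolism, had 3.98, 3.68 and 4.59 FPKM in control and 1.98, 1.65 and 1.96 FPKM in shTMPRSS4 libraries and fell 2.19-fold, and 18.7% of its 31-base words occur in the pseudogene CYP2B7P. The readthrough CYP3A7-CYP3A51P had 28, 7 and 0 counts in control replicates 1, 2 and 3 and none in shTMPRSS4 libraries. Against a floor of 3 counts over that group it was at least 14.1-fold lower, but its groups overlapped at 0, it was not tested, and 93% of its 31-base words belong to CYP3A7 as well. Its log2 fold change of -3.24 went to -2.06 without control replicate 1 and to -4.95 without control replicate 3. UGT2B7 and UGT2B15 attach glucuronic acid to steroids and drugs. UGT2B7 had 8, 8 and 3 counts in control and 29, 29 and 19 in shTMPRSS4 libraries. UGT2B15 had 2, 2 and 0 and 22, 22 and 22 counts, a ratio of 13.7 (95% counting interval 5.09 to 51.6). Both passed as higher (edgeR adjusted p = 0.00303 and 2.40e-04). They entered the test through the shTMPRSS4 libraries, where they were high, so these calls add no support. UGT2B7 did not pass under TMM or DESeq2 scaling (edgeR adjusted p = 0.377 and 0.363). The log2 fold change of UGT2B15 went from 3.82 to 3.06 without control replicate 3, and 37.1% of its 31-base words occur in UGT2B17. For UGT2B7, 20.7% of the 31-base words occur in other genes, and 13.6% in UGT2B10.

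The 3 enzymes of nucleotide metabolism rose at recovered depth, but none of them passed under TMM or DESeq2 scaling. AK9 turned under both. With TMM the log2 fold change was 0.0949 for NT5M (edgeR adjusted p = 0.75) and 0.0391 for AK7 (edgeR adjusted p = 0.962). NT5M, a mitochondrial nucleotidase that limits thymidine nucleotides, had 0.81, 0.69 and 0.77 FPKM in control and 1.57, 2.15 and 1.87 FPKM in shTMPRSS4 libraries and rose 2.46-fold. The adenylate kinases AK7 and AK9, the first of them found mainly in motile cilia, rose as well, AK7 from 0.55 ± 0.114 to 1.27 ± 0.0929 FPKM and AK9 from 1.1 ± 0.085 to 2.21 ± 0.475 FPKM.

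**Figure D4:**
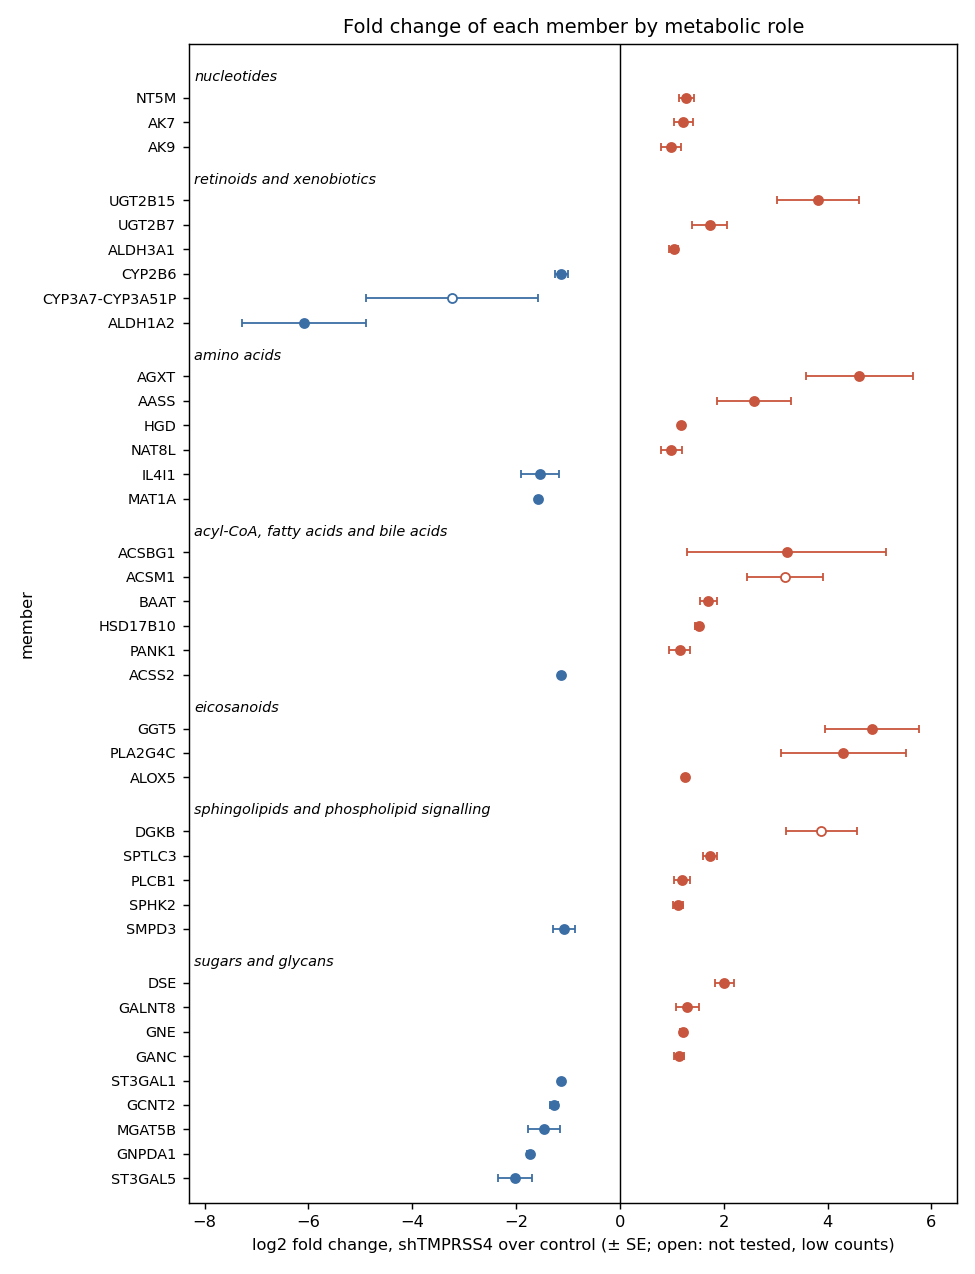
Log2 fold change of 38 members, shTMPRSS4 over control, with its SE over 3 against 3 libraries, grouped by metabolic role. Filled points passed the edgeR test, open points (ACSM1, DGKB and CYP3A7-CYP3A51P) were not tested, and for these and other members with few counts in 1 group the size depends on the added 0.5.

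The deposited annotation also gives each product a compartment, which the choice of members did not use. Golgi terms were held by 7 members, 5 lower (GCNT2, MGAT5B, SMPD3, ST3GAL1 and ST3GAL5) and 2 higher (DSE and GALNT8). Mitochondrial terms were held by 7, of which 6 were higher (AASS, ACSM1, AGXT, HSD17B10, NAT8L and NT5M) and 1 lower (ACSS2). A product can hold several terms: ACSS2, described above as an enzyme of the cytosol and nucleus, also holds cytosol and nuclear terms. Terms of the endoplasmic reticulum were held by 10 members, 8 higher and 2 lower, and cytosol terms by 19, 15 higher and 4 lower. The 2 members with a peroxisomal term, AGXT and BAAT, were both higher. Against the 70.0% of all 40 members that were higher, the Golgi members leaned to the lower side, on 7 genes and with no test. At recovered depth these counts hold, and of the mitochondrial members NAT8L turned under TMM and DESeq2 scaling.

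The lists of central energy metabolism had almost no gene among those analysed. Of 31 genes of the TCA cycle and pyruvate and of 42 subunits of electron transport and ATP synthase none was in the table. Neither list names NDUFA4L2, which is in the table and was left out of the members by symbol. Of 54 genes of glycolysis, gluconeogenesis and glycogen 2 were, ACSS2, which was lower, and the non-member PGM5, which was higher. Of 56 fatty acid genes 3 were in the table, ACSBG1 passing as higher, the desaturase SCD5 passing as lower and ACSM1 not tested. Of 79 retinoid, xenobiotic and alcohol genes 8 were, 6 passing as higher and 2 as lower. That list does not name DHRS9, which is in the table and was left out by symbol. Over the 13 lists 43 of 1023 genes were in the table, 28 higher and 15 lower, and 34 of the 43 were members. Genes of these lists outside the table were not analysed here, so nothing follows about them.

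Replicates of the members were close for the abundant genes and wide for the scarce ones. The median within-group SD on the log2 scale was 0.235 for the members and 0.284 for all rows. For 6 of 38 members the SE over replicates was smaller than counting error alone gives, HGD, MAT1A and ALOX5 among them, so those small errors understate the uncertainty. Without shTMPRSS4 replicate 1, the library that stood apart over all rows, 25 members passed as higher and 11 as lower. Without control replicate 3, which leaves the libraries with the code L4, 27 and 11 passed, with 38 members tested.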

How the data were processed

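RNA of 3 control and 3 shTMPRSS4 samples of AsPC-1 cells was sequenced. Per the file headers, the authors deposited whole-number read counts and FPKM per gene and library, FPKM group means, the log2 ratio of the groups, its p-value and its false discovery rate. Bowtie 0.12.2 is named in the submitters' processing notes beside 2 builds of the mouse genome (mm8 and mm9), yet the rows carry human Ensembl identifiers, so the alignment reference is uncertain. Neither the counting tool nor the authors' test is given in the sources used here. A group mean of 0 was deposited as 0.001, which touched 2 members.

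Relative depth was the median ratio of count to FPKM over 159 genes with at least 200 counts, and absolute depth came from 12 genes with 1 transcript in GENCODE release 29 (57200000 to 57300000 reads for control replicate 1, 5th to 95th percentile). That annotation (GRCh38) gave coordinates and shared 31-base words. Counts of all rows were tested with edgeR 4.0.16 (R 4.3.3), adjusted over 705 rows that passed its low-count filter. Recovered depth was the library size, in place of TMM, since the table holds selected genes. Log2 fold changes are mean differences of log2 depth-scaled counts plus 0.5. P-values measure only the spread between these samples. Alternatives used DESeq2 1.42.0 and limma 3.58.1, and the test was checked on simulated counts.

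Members, lists and roles were chosen with earlier results of these data known. The naming rule took 22 members: the 12 highest levels, the 8 largest rises and falls among non-overlapping members with 1 FPKM or more in the higher group, those overlapping or not passing, GNPDA1 and ALOX5. The others are given with their role, chosen after their values were seen. Replicate numbers are shared between groups, but the deviations of same-numbered libraries correlated at -0.04, 0.06 and -0.01 over 174 genes. No pairing was seen and none was used in the main test. With 3 libraries per group these correlations cannot exclude a pairing. Of the 40 members 2 are counted in the totals and are not reported here singly. Intervals and floors cover counting error only.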

Additional observations from a re-analysis of the deposited data

How the results depend on the processing

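Every member given a value kept its direction under 13 of 15 alternatives, the exceptions being TMM and DESeq2 size factors over the listed genes. Most of the 13 could not test the direction against the scaling. Testing without a filter, the limit of 5 FPKM and the replicate block leave each log2 fold change as it was. Only TMM, DESeq2 size factors and upper-quartile scaling changed the library scale. With TMM, 7 members passed as higher in place of 26, 359 rows passed in place of 699, and the median log2 fold change of the members was 0.001 in place of 1.19. With DESeq2 size factors 8 members passed as higher and 368 rows passed, and the median was 0.0203. The lower members stayed at 11 under both, which is no check of them, since both scalings move fold changes downward. Among the log2 fold changes that turned were, with TMM and with DESeq2 size factors, -0.20 and -0.18 for AK9, -0.16 and -0.14 for ALDH3A1, -0.0459 and -0.0266 for GANC, -0.20 and -0.18 for NAT8L, -0.0426 and -0.0233 for PANK1 and -0.0674 and -0.0481 for SPHK2. HGD turned to -0.0064 with TMM. By construction these 2 scalings centre genes that were selected for a difference. Upper-quartile scaling gave 20 higher and 11 lower members and a median of 0.47, and limma gave medians of 1.11 and 0.38 with 0.1 and 1 added to the FPKM.

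With testing limited to means of 5 FPKM or more, where fewer genes are tested, 6 members passed as higher and 4 as lower, 174 rows passed and the members' median was 1.08. The DESeq2 Wald test and edgeR without a filter tested all 40 members, and all passed. Leaving out 1 library in turn gave 25 to 27 higher and 11 lower members, with a median of 1.12 to 1.22. With the replicate number as a block 25 members passed as higher and 11 as lower, and 682 rows passed; ACSBG1 was the member lost. Not every library correlated best with its own number. Depth limits the members with few counts: 7 had fewer than 20 counts over the control group.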
